A study of Drosophila melanogaster with 2 samples.

Results

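The peaks described here are the 343 of 30000 peaks of the pooled tx binding list whose summits lie on chromosome 4 or in the pericentric heterochromatin assembled at the inner ends of chromosome arms 2L, 3L, 3R and X of Drosophila melanogaster. They were chosen by position alone on the dm6 build. A summit was kept when it lay on chromosome 4, above 22000000 on 2L, above 22960000 on 3L, below 4170000 on 3R or above 22630000 on X. Chromosome 4 held 233 members and the 4 pericentric pieces held 110, of which 38 were on 2L, 29 on 3L, 20 on 3R and 23 on X. The 24103 pooled peaks on the remainder of 2L, 3L, 3R and X are called the rest below.

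The peaks come from chromatin immunoprecipitation with sequencing (ChIP-seq) of whole embryos of a fly line that stably expresses tx with green fluorescent protein (GFP) at its C-terminus, pulled down with an antibody to the tag. The embryos were of mixed sex and 0 to 24 h old, and the sonicated fragments ran from 200 to 800 bp, per the labels. All embryos belonged to 1 group with 2 biological replicates, and the deposited notes name 1 control used for both. Each of the 2 replicates and their pool has a relaxed list of 30000 peaks, and an optimal set of 3102 peaks was selected by the irreproducible discovery rate (IDR). Those 3102 peaks are the strongest of the pooled list, so membership in the optimal set restates a peak's rank. Read depth is unknown. A peak that is weak in chromatin of whole embryos may be bound in few cells or bound weakly in many, and these cannot be told apart here.

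Pericentric heterochromatin flanks the centromeres, is rich in transposons and satellite repeats, and carries nucleosomes methylated at lysine 9 of histone H3 that are bound by heterochromatin protein 1. Chromosome 4, the smallest Drosophila chromosome, is also decorated with that protein over most of its length, and with the chromosome-specific protein POF, yet it holds many active genes. Genes embedded in these regions are transcribed within a repeat-rich setting, and some depend on it for normal expression. The protein tx, named taxi or delilah, is a transcription factor with a basic helix-loop-helix domain. Proteins of that class bind the E-box, written CANNTG.

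The replicate 2 list stood apart from the others in the pericentric pieces. It had 548 summits there, against 82 in the replicate 1 list and 110 in the pooled list. On chromosome 4 the counts were close, with 244 in replicate 2, 271 in replicate 1 and 233 in the pool. The surplus was largest on 3L, with 260 summits in replicate 2 against 17 in replicate 1. The next was 3R with 124 against 10, then 2L with 116 against 30 and X with 48 against 25. Of the 548 pericentric summits of replicate 2, 23 (4.20%) had a replicate 1 summit within 100 bp and 54 (9.85%) had a pooled one, whereas 26.7% and 43.7% of the replicate 2 summits of the rest did. They were also placed in less distinctive DNA. Every 50-base word (50-mer) starting in a fixed window centred on the summit occurred once in the genome for 67% of them. The same held for 93.9% of the pericentric summits of replicate 1 and 99.4% of the replicate 2 summits of the rest. The part that repeated sequence plays in the surplus was not tested. Densities, classes, transposon overlap and gene shares of the pericentric pieces are therefore given for the pooled list and for each replicate list, and other pericentric values are from the pooled list unless a replicate is named.

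The windows below are 101 bases centred on a summit, read from the Release 6 genome (dm6) on the plus strand. The first set shows the 3 strongest members of chromosome 4 and the strongest member of each pericentric piece, since these are the sites with the most signal in each region. Capitals mark CANNTG, searched on both strands; the word is its own reverse complement in its fixed letters.

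Cals, chr4:1113277-1113377: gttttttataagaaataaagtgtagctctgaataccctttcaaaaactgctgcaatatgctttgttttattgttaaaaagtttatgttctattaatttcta
lgs, chr4:424768-424868: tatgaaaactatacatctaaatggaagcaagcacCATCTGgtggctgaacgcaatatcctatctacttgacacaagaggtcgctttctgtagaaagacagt
Sox102F, chr4:807514-807614: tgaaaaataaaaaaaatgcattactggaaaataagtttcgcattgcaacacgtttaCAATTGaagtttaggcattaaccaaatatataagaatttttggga
CG42346, chrX:22833721-22833821: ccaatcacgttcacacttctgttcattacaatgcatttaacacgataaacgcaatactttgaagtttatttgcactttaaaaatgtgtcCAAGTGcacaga
tio, chr2L:22024578-22024678: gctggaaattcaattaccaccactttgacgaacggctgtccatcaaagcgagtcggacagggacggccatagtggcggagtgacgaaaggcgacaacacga
l(3)80Fg, chr3L:26012578-26012678: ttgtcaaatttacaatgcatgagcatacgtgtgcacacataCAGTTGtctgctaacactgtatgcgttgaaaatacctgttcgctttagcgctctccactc
Gfat1, chr3R:4128435-4128535: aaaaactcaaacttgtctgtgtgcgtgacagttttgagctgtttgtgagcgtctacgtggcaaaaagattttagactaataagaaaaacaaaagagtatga

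Of these 7 windows 4 held a CANNTG match, and none held more than 1. The Cals window on chromosome 4 was the most AT-rich of the 7, with 24.8% GC, and the tio window on 2L the most GC-rich, with 54.5%.

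Summits were sparse in the pericentric pieces and only moderately sparser than elsewhere on chromosome 4. The pooled list had 9.48 summits per Mb outside assembly gaps over the 4 pericentric pieces and 253 in the rest, a ratio of 0.0375 (95% exact interval 0.0308 to 0.0452). The p of the two-sided exact binomial test, adjusted by Benjamini-Hochberg over the 7 region groups, was smaller than double-precision arithmetic can hold. In replicate 1 the ratio was 0.0281 (0.0224 to 0.0349), and in replicate 2 it was 0.19 (0.174 to 0.207), so each list was below the rest, replicate 2 the least. In the optimal set the ratio was 0.00329, from 1 peak, and on chromosome 4 it was 0.345 (0.178 to 0.603). Chromosome 4 had 175 summits per Mb (153 to 199) and a ratio of 0.693 (0.606 to 0.788; adjusted exact p = 4.33e-09). Replicate 1 gave 0.811 (0.716 to 0.914) and replicate 2 gave 0.737 (0.647 to 0.836). Intervals cover the counting of peaks only, and neighbouring peaks are not independent. Over all members together the density was 26.5 summits per Mb, a ratio of 0.105 (0.0941 to 0.117).

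In the pooled list the pericentric pieces fell into a denser and a sparser pair. The pooled density was 25.1 per Mb on 2L and 25.3 on X, ratios of 0.102 (0.0720 to 0.140; adjusted exact p = 4.47e-105) and 0.115 (0.0727 to 0.173; adjusted exact p = 2.14e-55) to the rest of the same arm. It was 5.76 on 3L and 4.82 on 3R, ratios of 0.0205 (0.0137 to 0.0295) and 0.0185 (0.0113 to 0.0286). Replicate 1 had 19.8 on 2L, 27.5 on X, 3.37 on 3L and 2.41 on 3R. Replicate 2 did not show these pairs, with 76.6 on 2L, 52.7 on X, 51.6 on 3L and 29.9 on 3R, ratios of 0.301 (0.248 to 0.362), 0.265 (0.195 to 0.352), 0.19 (0.167 to 0.215) and 0.113 (0.0936 to 0.135). The lengths inside the limits also differ: 1.51 Mb on 2L and 0.910 Mb on X, against 5.04 Mb on 3L and 4.15 Mb on 3R. The last 2 pieces therefore extend much farther in from their limits than the first 2.

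Most pericentric members lay close to the limit. Of the 110, 80 were within 500 kb of it, 7 were 500 to 1000 kb inside and 23 were deeper. Summed over the 4 pieces, the pooled density was 204 summits per Mb at 500 to 1000 kb outside the limit and 168 in the last 500 kb outside. It was 40 in the first 500 kb inside, 3.66 in the next 500 kb and 2.99 beyond. Replicate 1 followed the same course, with 198, 155, 35.5, 1.57 and 1.04. Replicate 2 had 184 and 188 outside but 88.6, 44.5 and 37.2 inside, so in this sum its surplus went deep into the pieces. The X piece differed, with 47 replicate 2 summits in the first 500 kb inside and 1 beyond. The X limit lay within a stretch that was already sparse: only 4 pooled summits (8 per Mb) fell 500 to 1000 kb outside it, and 26 (59.7 per Mb) in the last 500 kb, against 23 (46.0 per Mb) in the first 500 kb inside.

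**Figure D1:**
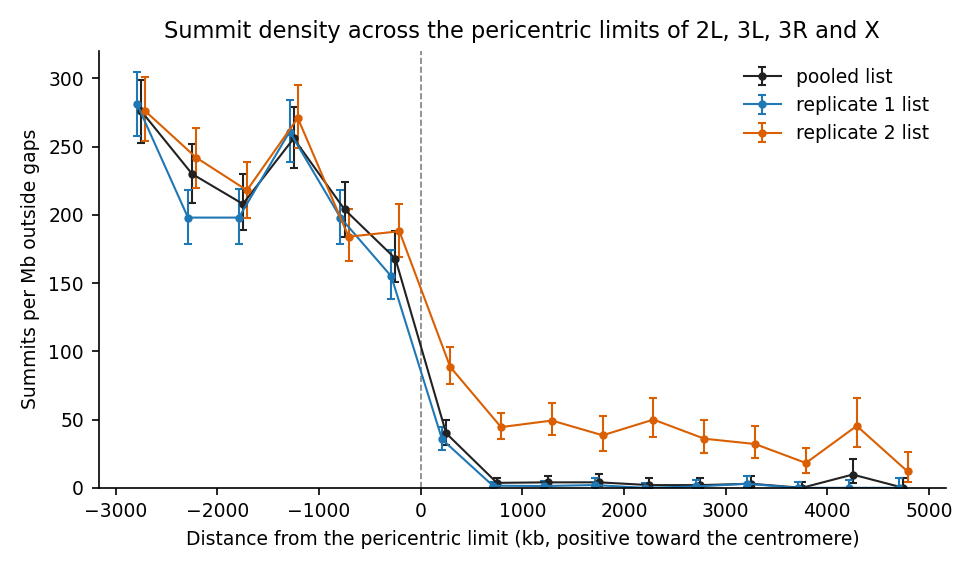
Summits per Mb outside assembly gaps (vertical axis) in 500 kb bins by distance in kb from the pericentric limit, summed over 2L, 3L, 3R and X, with positive distances toward the centromere and bars for the 95% Poisson interval; the deepest bins hold 3L and 3R only or 3L alone. The pooled and replicate 1 lists fall from 168 and 155 per Mb just outside to 3.66 and 1.57 at 500 to 1000 kb inside, and the replicate 2 list stays at 44.5 there.

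The peaks nearest to the limits were weak or middling on both sides. On 2L the first member inside lay 12.2 kb from the limit with a signal of 12.9, and the last peak outside lay 19.6 kb away with 13.5. The 3L pair had signals of 19.3 inside at 3.40 kb and 15.8 outside at 1.02 kb. For 3R they were 15 at 4.56 kb and 16.1 at 5.93 kb, and for X 20.6 at 0.894 kb and 14.7 at 0.763 kb. The signal is the authors' own value for a peak and is used here only within a list.

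These regions offer different amounts of DNA that can be told apart by sequence and of promoters. In the pericentric pieces 46.6% of bases outside gaps begin a 50-mer that occurs once in the genome, against 86.7% on chromosome 4 and 94.7% in the rest. Annotated transposons cover 15%, 25.1% and 4.08% respectively. Bases within 1000 bp of a protein-coding start site, here called promoter bases, make up 2.13%, 15.4% and 22.2%, and there are 9.39, 60.1 and 114 protein-coding genes per Mb. Counting only summits and bases at unique 50-mers raised the pericentric ratio of the pooled list to 0.0762 (0.0626 to 0.0919) and that of chromosome 4 to 0.754 (0.660 to 0.859; adjusted exact p = 9.40e-06). In replicate 1 the unique-base ratio of chromosome 4 was 0.880 (0.777 to 0.992; adjusted exact p = 0.0355). In replicate 2 the pericentric ratio rose to 0.369 (0.338 to 0.403).

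Promoters were, in the relaxed lists, the part of chromosome 4 where summits were as dense as elsewhere within counting error. There were 517 promoter summits per Mb of promoter on chromosome 4 and 466 in the rest, a ratio of 1.11 with an interval of 0.906 to 1.34 (adjusted exact p = 0.281). Outside promoters the ratio was 0.588 (0.490 to 0.701; adjusted exact p = 1.10e-10). The intervals of the 2 ratios do not overlap, though the difference between them was not tested. Replicate 1 gave 1.17 (0.965 to 1.40) at promoters and 0.745 (0.631 to 0.873) outside. Replicate 2 gave 0.948 (0.737 to 1.20) and 0.712 (0.610 to 0.826). The optimal set had a lower promoter ratio, 0.517 (0.223 to 1.02, adjusted exact p = 0.0764) from 8 summits. Outside promoters its ratio was 0.293 (0.0798 to 0.754).

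In the pericentric pieces promoter summits were also depleted, but far less than other summits. Their density per promoter Mb was 186, a ratio of 0.400 (0.293 to 0.534; adjusted exact p = 4.07e-12), against 0.0294 (0.0226 to 0.0375) outside promoters. In replicate 1 these ratios were 0.349 (0.251 to 0.472) and 0.0192 (0.0137 to 0.0261). Replicate 2 had 0.594 (0.443 to 0.780) at promoters and 0.2 (0.182 to 0.219) outside them, so the lists differed much more outside promoters than at them.

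**Figure D2:**
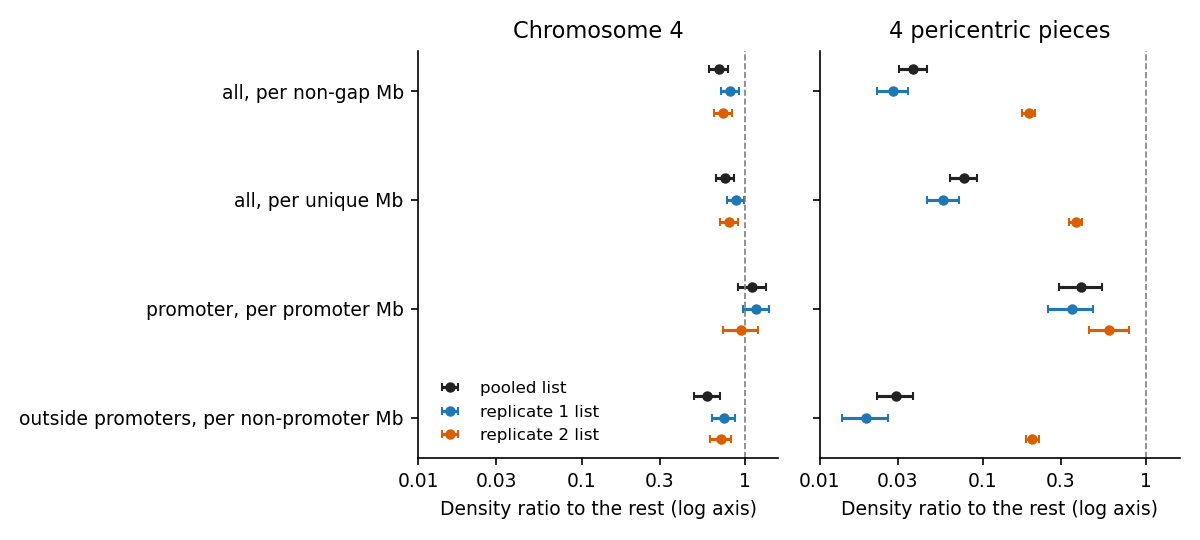
Summit density relative to the rest of 2L, 3L, 3R and X (horizontal log axis, dashed line at 1) for chromosome 4 and for the 4 pericentric pieces together, by kind of summit and base, with points for the ratio in each list and bars for the 95% exact interval. Chromosome 4 promoters lie at 1.11 in the pooled list, whereas pericentric bases outside promoters lie at 0.0294 in the pool and at 0.2 in replicate 2.

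The share of members at promoters was close to that of the rest in the pooled list. Of the 343 members 152 (44.3%, 95% Wilson interval 39.1 to 49.6%) lay within 1000 bp of a start site, against 40.9% of the rest, a difference of 3.37 percentage points with a Newcombe interval of -1.83 to 8.70. The share was 45.5% (106 of 233) on chromosome 4 and 41.8% (46 of 110) in the pericentric pieces, ranging there from 25% (5 of 20) on 3R to 50% (19 of 38) on 2L. The pericentric share depended on the replicate. It was 51.2% (42 of 82) in replicate 1, where the rest had 43.1%, and 9.49% (52 of 548) in replicate 2, where the rest had 31.6%. That last difference, -22.1 points (-24.4 to -19.3), was the one whose interval excluded 0 among the pericentric shares of the 3 relaxed lists.

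Outside promoters, exons held 69 members (20.1%) and introns 74 (21.6%), against 14.0% and 31.3% of the rest, and 48 members (14.0%) were intergenic, against 13.8%. Replicate 1 was close to this, with 20.1% of its summits inside the regions in exons, 23.2% in introns and 11.6% intergenic, against 12.5%, 31.6% and 12.8% of its rest. In replicate 2 the regions together had fewer summits in exons than the rest, 15.3% against 18.1%. They had more in introns and intergenic DNA, 39.9% and 29.5% against 32.2% and 18%. Chromosome 4 alone did not turn in this way. Its exons held 22.3% in the pool, 21.4% in replicate 1 and 31.1% in replicate 2, each above the rest. Its introns held 21%, 22.9% and 25% in the same order, each below the rest. In the pericentric pieces alone, introns held 22.7% of pooled summits, 24.4% in replicate 1 and 46.5% in replicate 2. Exons held 15.5%, 15.9% and 8.21% there in the same order, and intergenic DNA 20%, 8.54% and 35.8%. The median distance from a summit to the nearest protein-coding start site was 1340 bp for the members and 1567 bp for the rest. Among promoter summits it was 228 bp on chromosome 4, 104 bp in the pericentric pieces and 244 bp in the rest. The pericentric summits of replicate 2 had a median distance of 23265 bp, against 920 bp in replicate 1.

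Signal on chromosome 4 ranged widely but had a low centre. The pooled signal ran from 12.9 to 244 with a median of 17.9 on chromosome 4, and from 12.9 to 59.2 with a median of 19.1 in the pericentric pieces. The rest had a median of 19.9 and a maximum of 1473. As percentiles of the whole list, with 100 the strongest, the medians were 39.7, 46.2 and 49.8. For all summits replicate 1 kept that order (37.6, 48.5 and 50). In replicate 2 chromosome 4 was at 49.4, next to 50.1 in the rest, and the pericentric pieces were at 34.5. At promoters alone the pooled median percentile was 51.6 on chromosome 4, 66.2 in the pericentric pieces and 61.5 in the rest. The replicates did not keep this promoter order, with 49.7, 59.6 and 60.9 in replicate 1 and 69.9, 57.8 and 62.4 in replicate 2. Pericentric promoter summits were thus below the rest in both replicates, and those of chromosome 4 were above it in replicate 2. Among the 1000 strongest peaks of each of the 3 relaxed lists, 6 were on chromosome 4 and 0 in the pericentric pieces. Among the strongest 5000, the pericentric pieces held 5 in the pool, 2 in replicate 1 and 24 in replicate 2.

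**Figure D3:**
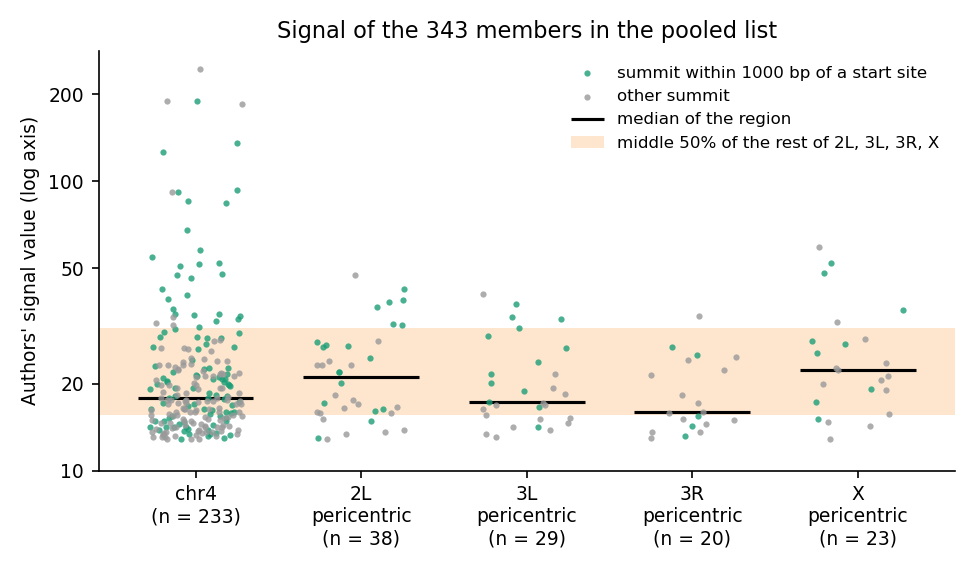
The authors' signal value in the pooled list (vertical log axis) of every member by region, coloured by whether the summit lies within 1000 bp of a protein-coding start site, with a line at each region's median and a band over the middle 50% of the rest of 2L, 3L, 3R and X. Chromosome 4 reaches 244 and the pericentric pieces 59.2, while the medians of chromosome 4 and of the rest are 17.9 and 19.9.

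The strongest chromosome 4 members lay near genes of several kinds, and are given one by one. The strongest, in an exon of Cals, which encodes the synaptic membrane protein Calsyntenin, had a pooled signal of 244 and ranked 210 of the pooled list, 249 in replicate 1 and 175 in replicate 2. Its summit lay 9638 bp from the nearest start site. The second lay between genes, 19093 bp from the start of lgs, whose product legless is a co-activator of Wnt signalling, and ranked 387, 338 and 590 in the same order. Both sites stood near the top of every relaxed list.

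Sox102F, which encodes an HMG-box transcription factor, had a summit 217 bp upstream of a start site that ranked 394 in the pool, 387 in replicate 1 and 468 in replicate 2. A second summit 417 bp upstream ranked 1481, 3535 and 1438, and since the first is so close the 2 are not separate sites in any strict sense. Near zfh2, which encodes a zinc finger and homeodomain protein, an intergenic summit 3929 bp upstream ranked 411, 303 and 916. An intergenic summit 4464 bp upstream of fuss, a gene of the Ski and Sno family that acts in BMP signalling, ranked 1540, 1320 and 3981. The rank was better in replicate 1 than in replicate 2 for zfh2 and fuss, and close to equal for the first Sox102F summit.

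The other sites among the 12 strongest were at promoters. The promoter summit of RpS3A, a protein of the small ribosomal subunit, lay 91 bp upstream and ranked 881 in the pool, 909 in replicate 1 and 1120 in replicate 2. That of ATPsynbeta, a subunit of the mitochondrial ATP synthase, lay 7 bp from a start site and ranked 2464, 2159 and 4059; the start of CG11076 is within 1000 bp of the same summit. At gw, which encodes the microRNA silencing factor gawky, the summit 147 bp upstream ranked 762 and 769 in the pool and replicate 1 but 25033 in replicate 2, although another replicate 2 summit within 1000 bp of a gw start ranked 627. PlexA, a semaphorin receptor of axons, had a summit 111 bp upstream ranking 1743, 3296 and 560. Asator, which encodes a kinase of the spindle, had 2 summits among the strongest 12, ranking 1518 and 1778 in the pool; the second had no replicate 2 summit within 100 bp. Of the 12 strongest pooled members of chromosome 4, which are also its 12 peaks in the optimal set, 8 were at promoters.

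The strongest pericentric members had lower signal than the strongest of chromosome 4, and 8 of the 12 strongest sat at promoters. The first, in an intron of CG42346 on X that also lies inside fog, a gene of cell shape change at gastrulation, had a signal of 59.2 and ranked 3040 in the pool, 2790 in replicate 1 and 3626 in replicate 2. It was the 1 pericentric peak of the optimal set. The next on X were at the promoters of FucTC, a fucosyltransferase gene, with ranks of 3643, 4614 and 3247, and of Rab21, a small GTPase of endosomes, with ranks of 4048, 6368 and 2201. The summit 473 bp upstream of stnB, which encodes the endocytic protein stoned B and shares its promoter with stnA, ranked 6066, 6135 and 15639. All 4 of these X sites were found in both replicates.

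On 2L the strongest member lay in an exon of tio, which encodes a zinc finger protein of the teashirt family, and ranked 4182 in the pool with no summit of either replicate within 100 bp. The promoter summit of Clamp, a zinc finger protein that binds GA repeats, ranked 4822 in the pool, 5419 in replicate 1 and 6689 in replicate 2. At CG3651 a promoter summit ranking 5443 had no replicate 1 match, and its neighbour at 5570 ranked 6639 and 6448 in the replicates. RpL21, a protein of the large ribosomal subunit, had a summit 26 bp from a start site with ranks of 5902, 7742 and 6728. On 3L the intronic summit of l(3)80Fg ranked 5125, 5142 and 8487, and the promoter summit of mRpS5, a mitochondrial ribosomal protein gene, ranked 5719, 21181 and 2408. The strongest 3R member, in an intron of Gfat1, which encodes the first enzyme of the hexosamine pathway, ranked 6494, 9536 and 5478. Of these 8 sites on 2L, 3L and 3R, 6 were found in both replicates.

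Genes with a promoter summit were more frequent on chromosome 4 than in the rest and less frequent in the pericentric pieces. On chromosome 4, 66 of 80 protein-coding genes (82.5%, 72.7 to 89.3%) had a pooled summit within 1000 bp of a start site, against a background of 63.0% of the 10904 genes of the rest, a difference of 19.5 points (9.70 to 26.3). In the pericentric pieces it was 38 of 109 (34.9%), a difference of -28.1 points (-36.5 to -18.8). Replicate 1 gave 82.5% and 28.4% for these regions, and replicate 2 gave 65.0% and 40.4%, against 62.8% and 58.8% of the rest. The chromosome 4 difference in replicate 2, 6.18 points (-4.78 to 15.8), had an interval that included 0. Promoter length per gene was 2.56 kb on chromosome 4, 2.26 kb in the pericentric pieces and 1.94 kb in the rest, and its part in the chromosome 4 share was not tested. With the optimal set the order turned: 7 chromosome 4 genes (8.75%) and 0 of 109 pericentric genes had a summit, against a background of 19.3%. A count of 0 of 109 allows a share of up to 3.40% by the Wilson interval.

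**Figure D4:**
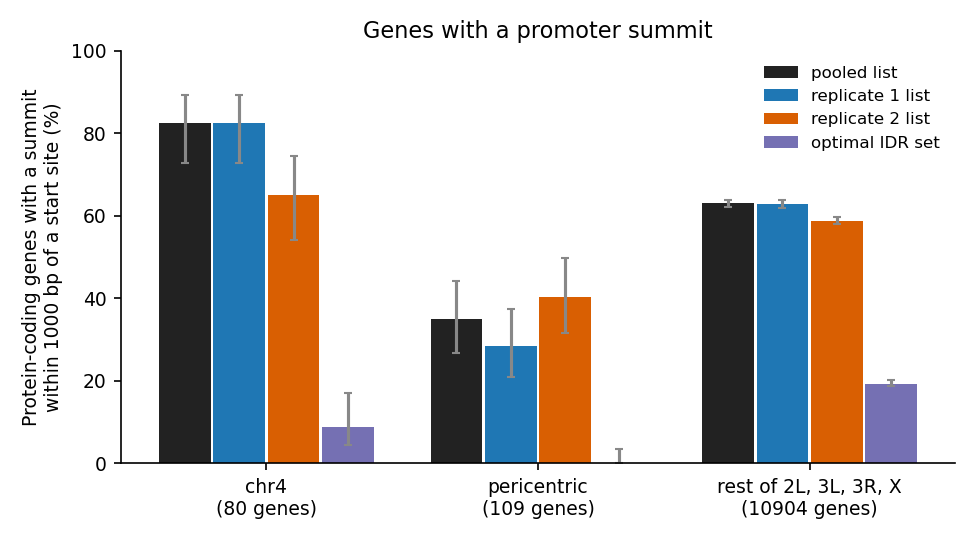
Percent of protein-coding genes with a summit within 1000 bp of a start site (vertical axis) on chromosome 4, in the 4 pericentric pieces and in the rest of 2L, 3L, 3R and X, for each list, with bars from 0 and 95% Wilson intervals. Chromosome 4 is above the rest in the pooled list (82.5% against 63.0%) and below it in the optimal set (8.75% against 19.3%).

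Developmental regulators of chromosome 4 had a promoter summit in 10 of 14 cases (71.4%, 45.4 to 88.3%), and the interval covers both the 82.5% of all chromosome 4 genes and the 63.0% of the rest. The best ranked were Sox102F at 394 and gw at 762. They were followed by ey, the Pax6 gene of eye development, at 3636 and lgs at 4154. The ey site is shared with the divergent neighbour myo. Further bound genes were pan, the transcription factor of Wnt signalling, pho, a DNA-binding Polycomb group protein, and ci, the transcription factor of Hedgehog signalling, at 4812, 5441 and 23393. Those without one in the pooled list were toy, sv, fd102C and onecut, named after their values were seen. All 4 had a promoter summit in at least 1 replicate list, such as toy at 15742 in replicate 1 and sv at 7370 in replicate 2.

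Chromosome 4 genes listed as neuronal and signalling had one in 16 of 19 cases (84.2%) and those listed as housekeeping in 14 of 15 (93.3%). The Wilson intervals were 62.4 to 94.5% and 70.2 to 98.8%. The list names are loose, as Tdg among the former shows, so these shares describe the lists and not gene classes. Among the former PlexA ranked 1743, myo, which encodes a TGF-beta family ligand, 3636, Tdg, a thymine DNA glycosylase gene, 4274, and Cadps, a factor of dense-core vesicle release that shares its site with the kinase gene Dyrk3, 5175. The receptor mGluR, the GABA transporter gene Gat and the synaptotagmin gene Syt7 had no promoter summit in any of the 3 relaxed lists. Among the latter RpS3A, Asator, ATPsynbeta and Gyf had the best ranks, with 881, 1518, 2464 and 3146, and JYalpha, a sodium pump gene, had none in these lists. The intervals of the 3 lists overlap each other, and the 82.5% of all chromosome 4 genes lies inside each.

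Genes long known to reside in pericentric heterochromatin had a promoter summit in 8 of 24 cases (33.3%, 18.0 to 53.3%), and 0 of 24 had one in the optimal set. All pericentric genes together had 34.9% (38 of 109), close to the list, against 63.0% of the rest, or 19.3% in the optimal set. The best ranked were stnA and stnB at 6066, RpL15 at 6785 and RpL5 at 8843, the last 2 encoding proteins of the large ribosomal subunit. The RpL15 site had no replicate 1 promoter summit and ranked 12481 in replicate 2. Next came su(f), which encodes an mRNA 3′-end processing factor, at 9987. The promoters of lt, the Vps41 gene of lysosomal transport, of nvd and spok, genes of ecdysone synthesis, and of Parp1 had none in any of the 3 relaxed lists.

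Fewer members than peaks of the rest were found in both replicates. Of the 343, 73 (21.3%, 17.3 to 25.9%) had a summit within 100 bp in both replicate lists, against a background of 26.7%, a difference of -5.39 points (-9.43 to -0.716). The split was 51 of 233 on chromosome 4 (21.9%) and 22 of 110 in the pericentric pieces (20%). The replicate 1 list, whether or not replicate 2 also did, held a match for 69.5% of the chromosome 4 members and 48.2% of the pericentric ones, against 67.6% of the rest. For the replicate 2 list, counted likewise, the shares were 38.6% and 49.1%, against 43.1%. In the optimal set were 13 members (3.79%), against a background of 10.4%.

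Annotated transposons held 35 chromosome 4 members (15%), 9 pericentric members (8.18%) and 79 peaks of the rest (0.328%). Per Mb of transposon, chromosome 4 had 105 summits against 20.3 in the rest, a ratio of 5.17 (3.37 to 7.79; adjusted exact p = 9.04e-12). Counting only unique 50-mers, the ratio was 1.32 (0.857 to 2.00; adjusted exact p = 0.189). By that count replicate 1 gave 1.69 (1.12 to 2.51; adjusted exact p = 0.0132) and replicate 2 gave 1.6 (1.05 to 2.40; adjusted exact p = 0.0912). In the pericentric pieces the corresponding ratios were 0.254 (0.112 to 0.508) and 0.107 (0.0470 to 0.213) in the pool, and 0.179 (0.0635 to 0.407) and 0.077 (0.0274 to 0.176) in replicate 1. Replicate 2 turned the first, with 55 summits and a ratio of 1.64 (1.13 to 2.35; adjusted exact p = 0.0133), of which 42 summits and a ratio of 2.45 (1.35 to 4.67) were on 3L. By unique 50-mers its pericentric ratio was 0.68 (0.468 to 0.984; adjusted exact p = 0.0912). INE-1 is a short non-autonomous element that is very abundant on chromosome 4. It accounted for 24 of the 35 chromosome 4 cases and 5 of the 9 pericentric ones. It supplies 344 of the 566 annotated transposon copies of chromosome 4. By length its copies add up to 97.4 kb there, where annotated transposons cover 0.334 Mb in all. Transposons were compared after the peak positions had been seen.

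In the relaxed lists, chromosome 4 summits lay in DNA with a lower mean GC than those of the rest. In the optimal set the means were 35.6% over 12 windows and 35.9% in the rest, so the gap was not seen there. In the pooled list, mean GC over the 101-base window was 38.4% (SD 8.03 over 233 windows) on chromosome 4, 42.9% (SD 9.84 over 110) in the pericentric pieces and 43.9% (SD 11.2) in the rest, while all bases of these regions had 35.2%, 39.9% and 42.4%. Any CANNTG was held by 40.3% of chromosome 4 windows and 33.6% of pericentric ones, against 41.9% of the rest and 30.4% and 30.7% of all adjoining windows of the same length in the 2 regions. CAGCTG was held by 4 of 233 windows on chromosome 4 (1.72%) and 1480 of 24103 in the rest (6.14%), a difference of -4.42 points (-5.52 to -1.79), against 2.22% of all chromosome 4 windows. It was held by 2 of 110 pericentric windows (1.82%), by 2 of 82 in replicate 1 (2.44%) and by 18 of 548 in replicate 2 (3.28%). In replicate 1 the chromosome 4 share was 4.06% (11 of 271) and the interval of its difference, -3.68 to 1.20, included 0. In replicate 2 it was 0.820% (2 of 244), a difference of -4.90 points. The strongest CAGCTG window of each region group is shown because the form was rare among the members, with the match in capitals.

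CG17159, chrX:23091941-23092041: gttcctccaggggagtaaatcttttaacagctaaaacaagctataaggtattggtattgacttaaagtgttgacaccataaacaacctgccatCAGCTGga
dati, chr4:415831-415931: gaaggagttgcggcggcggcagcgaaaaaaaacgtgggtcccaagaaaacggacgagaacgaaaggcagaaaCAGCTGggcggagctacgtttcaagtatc

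The CG17159 site on X ranked 9013 and lay 640 bp from a start site. The dati site, near a zinc finger gene, ranked 12631 and was intergenic, 20276 bp from the nearest start. Both are of middling strength.

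TATCGATA, known as the DNA replication-related element and bound by the factor DREF, was more frequent on chromosome 4. It was held by 7 of 233 windows (3%), against 1.22% of the rest, a difference of 1.78 points (0.236 to 4.85), and against 0.895% of all chromosome 4 windows. The word is its own reverse complement, so 1 strand covers both, and it is not a case of CANNTG, as CAGCTG and CATATG are. In replicate 1 it was held by 7 of 271 (2.58%) and in replicate 2 by 2 of 244 (0.820%), the latter a difference of 0.171 points (-0.434 to 2.29). Of the 7 pooled members, 4 were at promoters, a share of 3.77% there against 2.68% of the promoter summits of the rest, and 3 lay in INE-1 copies. These 3, and the 2 strongest promoter sites, are shown with the word in capitals.

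Cadps, promoter, chr4:1231787-1231887: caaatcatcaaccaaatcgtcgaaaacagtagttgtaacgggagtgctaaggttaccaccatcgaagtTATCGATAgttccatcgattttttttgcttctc
Taf3, promoter, chr4:466809-466909: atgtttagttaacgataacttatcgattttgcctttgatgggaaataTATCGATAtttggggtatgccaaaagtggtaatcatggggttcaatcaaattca
Sox102F, INE-1 copy in an intron, chr4:822780-822880: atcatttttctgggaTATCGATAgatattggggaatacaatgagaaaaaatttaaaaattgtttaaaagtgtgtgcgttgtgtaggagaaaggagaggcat
fuss, intergenic INE-1 copy, chr4:980627-980727: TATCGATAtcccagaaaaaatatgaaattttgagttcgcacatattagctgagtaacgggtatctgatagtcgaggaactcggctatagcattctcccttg
fd102C, INE-1 copy in an intron, chr4:842839-842939: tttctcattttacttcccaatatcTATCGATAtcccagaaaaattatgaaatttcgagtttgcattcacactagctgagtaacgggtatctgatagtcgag

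The INE-1 windows were weak, ranking 26071 near Sox102F, 26658 near fuss and 29749 near fd102C, whereas those at Cadps and Taf3, a subunit of the general transcription factor TFIID, ranked 7863 and 9011. Laid over each other from the shared word without gaps, the Sox102F window and the fd102C window on the opposite strand were identical at 43 of 47 bases (91.5%). With both windows as printed, fuss matched fd102C at 44 of 77 bases (57.1%) and Sox102F at 30 of 86 (34.9%). The Sox102F strand laid over fuss was thus not the one laid over fd102C. The fuss and fd102C windows also share a stretch at unlike distances from the word, which a layout without gaps does not line up. How alike these copies are is therefore not measured by these 2 shares. The INE-1 members share a repeat by annotation and are not independent sequences. In the rest, TATCGATA was held by 0.211% of summits outside promoters.

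A further E-box form and a pair of simple words were searched on both strands. The form CATATG was held by 5.15% of chromosome 4 windows and 5.45% of pericentric ones, against 3.17% of the rest, and both intervals of the difference included 0. GAGAG was held by 6.87% on chromosome 4, a difference of -5.72 points (-8.35 to -1.70) from 12.6% in the rest, with 9.25% of all chromosome 4 windows; the pericentric share was 15.5%. TTAAAA was held by 23.2% on chromosome 4, a difference of 7.54 points (2.57 to 13.4) from 15.6%, but by 28.2% of all chromosome 4 windows. In the pericentric pieces it was held by 19.1%, near the 18.4% of all windows there, with 24.4% in replicate 1 and 14.4% in replicate 2.

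Along chromosome 4 the pooled density in steps of 100 kb ran from 96.4 to 290 summits per Mb, with the highest values at 400 to 500 kb and 1000 to 1100 kb from the left end. The last 48.1 kb outside gaps, of which 11.8% is at unique 50-mers, held 0 summits in each of the 3 relaxed lists. The genes nearest to the most chromosome 4 members were zfh2 with 12, Asator and Sox102F with 10 each and dati with 9. Among pericentric members CG42748 on 2L was the nearest gene of 8.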

How the data were processed

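The authors deposited peak lists of the tx-GFP ChIP-seq on builds dm6 and dm3, with a signal value for each peak. No aligner, peak caller or read depth is named in the labels or files used. The members and gene lists were chosen with earlier results of these data known. Summits were the start plus the summit offset of the dm6 lists. Start sites, genes and transposons were read from the annotation BDGP6.54 of Ensembl release 115, and sequences were cut from the Release 6 assembly. A promoter was 1000 bp either side of a protein-coding start, and summits matched within 100 bp. Densities were compared by two-sided exact binomial tests with Benjamini-Hochberg adjustment over 7 region groups, and shares by 95% Wilson and Newcombe intervals. Named genes were those nearest the 12 strongest summits of chromosome 4 and of the pericentric pieces, the strongest of each region, and up to 4 per gene list by promoter rank; genes named otherwise were chosen after their values were seen. Gene symbols were matched directly or by synonym, and 3 of 34 listed pericentric genes were not matched. Other entries matched genes outside the regions, such as Cka and wls, or named Parp1 again, which left 24 genes inside. Alternatives were other distances, limits, lists and unique bases. Tables were handled with pandas 2.3.3 and numpy 2.4.6 under Python 3.11.15, tests with scipy 1.17.1 and plots with matplotlib 3.10.9, and the statistics were checked on simulated data.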

Additional observations from a re-analysis of the deposited data

Results flagged for a closer look

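The dm3 lists, which the dm6 comparisons do not use, hold peaks on separate heterochromatin scaffolds (2LHet, 3LHet, 3RHet and XHet). The pooled list had 38 peaks there, replicate 1 had 19 and replicate 2 had 219. The strongest pooled peaks of 2LHet, 3LHet, 3RHet and XHet ranked 7166, 5121, 6502 and 8636. Pericentric members on dm6 had close ranks: CG12567 7217, l(3)80Fg 5125, Gfat1 6494 and ATbp 8662. In replicate 2 the strongest 3LHet peak ranked 2041, and the dm6 promoter summit of MED21 ranked 1995. Whether both builds list the same peaks was not tested. These counts are therefore not shown to add to the members or to the replicate 2 surplus. No control sample list was compared, and the replicate difference was not tested.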

How the results depend on the processing

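Over 29 results and 116 alternatives, 83 kept their direction and side of the threshold or stayed near the value. The summit densities of chromosome 4, of the pericentric pieces and of all members did so, although the pericentric ratio (0.0375) was 0.0126 or 0.127 with limits moved 500 kb toward the centromere or the arm. The transposon summit ratio of chromosome 4 did not, falling from 5.17 to 1.32 with unique 50-mers. Other changes follow in percentage points against the rest. The cause was not tested. With single replicate lists, the promoter share ran from -3.36 to 0.0552 on chromosome 4 (pooled 4.55), from -22.1 to 8.10 in the pericentric pieces (0.873) and from -16.4 to 1.92 over all members (3.37). With the optimal set it was -64.0 and -2.43 for the last pair, with limits moved 500 kb toward the arm 8.75 and 7.34, and with a 500 bp promoter 5.77 over all members. The signal percentile difference ran from -12.4 to -0.718 on chromosome 4, from -15.7 to -1.45 in the pericentric pieces and from -12.2 to -10.6 over all members, where promoter summits gave -7.01. The both-replicate share was -8.49 and -12.3 with a 200 bp distance, and -9.22 and -13.5 with any overlap, on chromosome 4 and in the pericentric pieces. The share of genes on chromosome 4 was -10.6 with the optimal set and from 6.18 to 19.7 with single lists; over all members it was -5.18 with 500 bp. With 100 bp either side, CATATG on chromosome 4 was 4.98, and pericentric TATCGATA and GAGAG were 0.657 and -2.10. The following were chosen after seeing the data. With single lists, TATCGATA ran from 0.171 to 1.41 on chromosome 4 and from -0.284 to 0.0513 in the pericentric pieces, CAGCTG from -4.90 to -1.88 and from -3.50 to -2.43, and pericentric TTAAAA from -0.250 to 8.37. At promoters of chromosome 4 TATCGATA was 1.10 and TTAAAA 7.00, and outside them CAGCTG was -3.11. No paired analysis was possible because there is 1 group. Read depth is unknown, so what depth limits cannot be given.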
